A study of Caenorhabditis elegans with 8 samples.

Results

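The 8 RNA libraries compared here came from Caenorhabditis elegans larvae at the L2 stage and were divided by the date in their titles. The earlier cohort holds the 4 libraries titled June28 and the later cohort the 4 titled July7 or August6, so all 8 libraries of the series enter. All worms carried Prpl-17::Grx1-roGFP2, a sensor of the glutathione pool driven by the promoter of the ribosomal protein gene rpl-17, in the N2 wild-type background. June28 holds reduced and oxidized replicates 1 and 2, July7 holds reduced and oxidized replicate 3, and August6 holds reduced and oxidized replicate 5. Each cohort therefore has 2 reduced and 2 oxidized libraries, with about 10000 worms per biological replicate, grown at 20 °C on plates with live E. coli OP50 after synchronized hatching. The libraries were sequenced together on 1 lane. What was done on each date is not said in the labels, and the source name of replicate 5 contradicts the redox label used here.

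Cultures of synchronized larvae that are set up at different times can differ in their food, their hatch and the moment of harvest. Worm larvae moult between stages, and transcripts for cuticle collagens, apical matrix proteins and hedgehog-related proteins cycle strongly with each moult, while digestive proteases and the translation machinery follow feeding and growth. The cohort difference is given below as later over June28 with the redox state as a covariate, so that redox is balanced in it.

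The libraries held 635990 to 1089259 counts over 5058 to 7548 rows with at least 1 count, so 3 counts, taken as the floor, stood at 2.75 to 4.72 CPM (counts scaled to library size). This covers counting error only. Mitochondrially encoded proteins have 12 rows, which held 190 counts together, and 1060 of the 2315 rows tested share exon bases with 1 coding gene on the other strand, so a row need not measure the gene it is named after. The text therefore speaks of rows. Of the marker lists, 5 of 6 adult yolk genes and 6 of 8 sperm genes were at 0 counts, as were pgl-3, gld-1 and glp-1 of the germline and nhr-23 and col-19 of the hypodermis. The summed level of the 10 body wall muscle markers ran from 1270 to 3710 CPM in June28 and from 1440 to 2160 CPM in later libraries. For the 10 intestinal markers these ranges were 261 to 725 and 151 to 421 CPM.

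Across the cohorts 4 rows rose and 0 fell, out of 2315 tested (edgeR's quasi-likelihood test with a Benjamini-Hochberg adjusted p under 0.05), which is 0.173% and 0.0% of them. The rows that rose were pud-3, C49G7.6, C47E8.4 and gcy-5, with log2 fold changes of 1.87 to 2.32. At an unadjusted p under 0.05, edgeR placed 107 rows higher (4.62%) and 97 lower (4.19%), 204 in all (8.81%). The count of higher rows was 13 with DESeq2 and 3 with limma voom, and both tools called 0 lower. Fitting the replicate number as a fixed block in edgeR gave 10 higher rows, the 4 included, and as a random block in voom it gave 3. With same-numbered libraries summed, 2 samples against 2, edgeR called 0 rows, and pud-3 and C49G7.6 had an adjusted p of 0.164. Without oxidized replicate 2 of June28 no row passed, and without reduced replicate 1 there were 9.

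**Figure D1:**
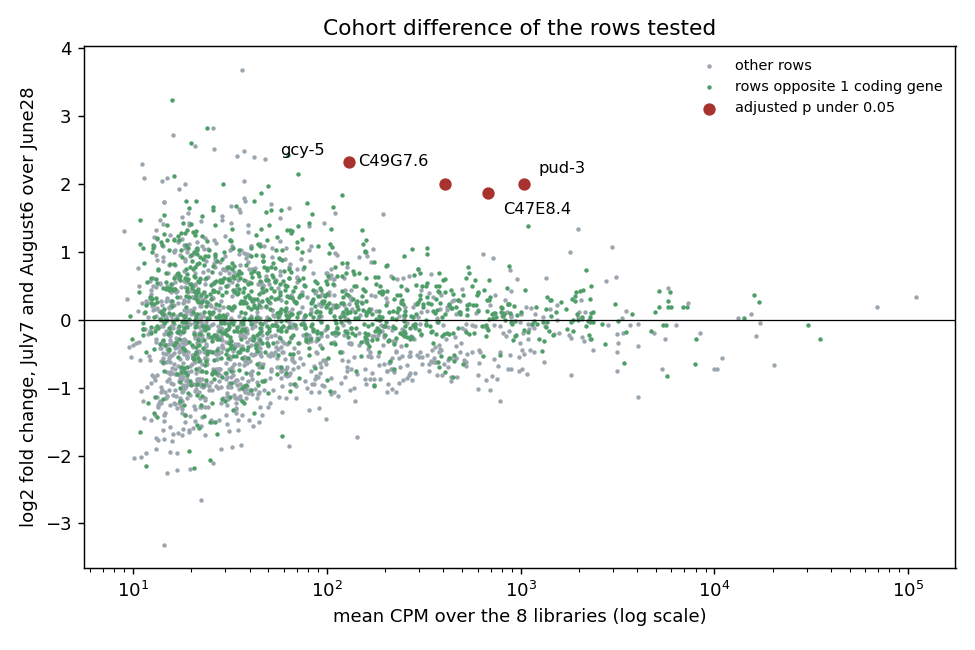
Cohort difference of each of the 2315 rows tested (y axis, log2 fold change of later over June28) against its mean level (x axis, CPM, log scale), with the 4 rows past an adjusted p of 0.05 in red, rows opposite 1 coding gene in green and other rows in grey. The 4 called rows all lie above 0, and the green points sit slightly higher (median 0.12) than the grey ones (median −0.27).

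The pud-3 row belongs to a small gene family first described as proteins up-regulated in long-lived insulin receptor mutants. In June28 it stood at 372.1 CPM in reduced replicate 1, 483.7 in oxidized replicate 1, 374.6 in reduced replicate 2 and 424.3 in oxidized replicate 2. In the later cohort it stood at 2474 and 1900 CPM in reduced and oxidized replicate 3 (July7) and at 1316 and 954.2 CPM in reduced and oxidized replicate 5 (August6). All later libraries lay above all June28 libraries, and July7 was the highest. The means were 413.7 ± 52.5 and 1661 ± 668 CPM (SD, n = 4), a log2 fold change of 2.00 (standard error 0.35, edgeR adjusted p = 0.00653). It was 2.34 within the reduced and 1.65 within the oxidized libraries. The gene lies on chromosome V at 2324634 to 2325152 in the WBcel235 annotation. The row of pud-4, at 2326678 to 2327282 beside it, was named after its values were seen. It went from 96.7 ± 25.5 to 292.1 ± 81.6 CPM without overlap (SD, n = 4), with a log2 fold change of 1.55 (standard error 0.40, edgeR adjusted p = 0.107), and DESeq2 called it. The pud-1.1 and pud-1.2 rows held 0 and 9 counts in all, and since the family's members are alike, the counting may have divided their reads. The pud-3 call was lost without oxidized replicate 2 (edgeR adjusted p = 0.0558) and without reduced replicate 3 (edgeR adjusted p = 0.0565).

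The C49G7.6 row matched no gene in the annotation used, so no role is given. Its level was 122.2 and 140.1 CPM in reduced and oxidized replicate 1 and 191.0 and 201.2 CPM in reduced and oxidized replicate 2. It was 780.0 and 806.3 CPM in reduced and oxidized replicate 3 and 455.7 and 558.1 CPM in reduced and oxidized replicate 5. The cohorts did not overlap, and within each replicate number the reduced and oxidized libraries lay close together. The log2 fold change was 1.99 (standard error 0.37, edgeR adjusted p = 0.00653), from 163.6 ± 38.4 to 650.0 ± 171 CPM (SD, n = 4). The call was lost without oxidized replicate 1 (edgeR adjusted p = 0.0504), oxidized replicate 2 (0.0558) or reduced replicate 3 (0.0565).

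The C47E8.4 row is named for a gene at chromosome V 14683698 to 14685485, which shares 49 exon bases with C47E8.3 on the other strand. It stood at 321.3, 333.4, 174.3 and 348.5 CPM in reduced 1, oxidized 1, reduced 2 and oxidized 2, and at 1639, 1372, 624.6 and 634.6 CPM in reduced 3, oxidized 3, reduced 5 and oxidized 5. The cohorts did not overlap, and July7 stood above August6. The log2 fold change was 1.87 (standard error 0.38, edgeR adjusted p = 0.0185), from 294.3 ± 80.8 to 1068 ± 517 CPM (SD, n = 4). C47E8.3 itself held 14 counts in its own row. The gene's span also overlaps that of hsp-90, a cytosolic chaperone, whose own row had a log2 fold change of 0.39. Leaving out 1 library ended the call for oxidized replicate 1 (edgeR adjusted p = 0.0504), reduced replicate 2 (0.0845), oxidized replicate 2 (0.118), reduced replicate 3 (0.221) and oxidized replicate 3 (0.0857).

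The gcy-5 row is named for a receptor guanylate cyclase of the right ASE chemosensory neuron. It stood at 46.7, 6.54, 82.4 and 46.7 CPM in reduced 1, oxidized 1, reduced 2 and oxidized 2, and at 122.6, 109.7, 444.5 and 181.5 CPM in reduced 3, oxidized 3, reduced 5 and oxidized 5. The later libraries all lay above the June28 libraries, with reduced replicate 5 far above the others and oxidized replicate 1 near the floor. The log2 fold change was 2.32 (standard error 0.51, edgeR adjusted p = 0.0455), from 45.6 ± 31.01 to 214.6 ± 156 CPM (SD, n = 4). The gene, on chromosome II at 10310400 to 10316219, shares 458 exon bases with idpp-8 on the other strand, whose own row held 0 counts. The call was lost without oxidized replicate 1 (edgeR adjusted p = 0.232), oxidized replicate 2 (0.118), oxidized replicate 5 (0.104) or reduced replicate 5 (0.418).

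The next rows by p, also higher in the later cohort, did not pass with edgeR. DESeq2 called F21C10.9, C30F12.5, ctr-9 and clec-178 of them, and edgeR with the fixed replicate block called B0284.3, F21C10.9, C30F12.5 and ctr-9. The ctr-9 row, named for a subunit of the Paf1 transcription elongation complex, stood at 457.2 to 851.5 CPM in June28 and at 1106 to 2374 CPM later, without overlap. Its log2 fold change was 1.38 (standard error 0.35, edgeR adjusted p = 0.101). It shares 175 exon bases with sod-4, an extracellular superoxide dismutase whose own row held 11 counts. The F21C10.9 row (log2 fold change 2.43, edgeR adjusted p = 0.0838) and the C30F12.5 row (1.84, edgeR adjusted p = 0.101) did not overlap between cohorts either. The B0284.3 row had the highest log2 fold change of all rows tested, 3.68 (standard error 0.86, edgeR adjusted p = 0.0617), but it stood at 0 CPM in reduced replicate 3 and at 17.5 CPM in oxidized replicate 2, so the cohorts overlapped. The row of clec-178, named for a C-type lectin, went from 6.43 ± 1.56 to 45.4 ± 24.4 CPM (SD, n = 4) without overlap, a log2 fold change of 2.82 (standard error 0.72, edgeR adjusted p = 0.101).

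Among rows lower in the later cohort, none passed with edgeR, DESeq2 or limma voom. The 8 with the smallest p include the smo-1 row, named for the small ubiquitin-like modifier SUMO. It stood at 38.5, 48.6, 39.7 and 27.7 CPM in reduced 1, oxidized 1, reduced 2 and oxidized 2, against 8.56, 9.68, 2.48 and 4.50 CPM in reduced 3, oxidized 3, reduced 5 and oxidized 5. The cohorts did not overlap and both August6 libraries were at or below the floor, with a log2 fold change of −2.65 (standard error 0.73, edgeR adjusted p = 0.141). The cut-2 row, named for a cuticlin of the cuticle, ran from 116.6 to 314.4 CPM in June28 and from 14.9 to 103.2 CPM later, again without overlap (log2 fold change −1.72, standard error 0.48, edgeR adjusted p = 0.141). The row of pmt-2, a methyltransferase of phosphatidylcholine synthesis, went from 32.3 ± 17.7 to 7.20 ± 4.13 CPM without overlap (SD, n = 4), a log2 fold change of −2.2 (edgeR adjusted p = 0.323). The F39C12.1 row had the lowest log2 fold change, −3.31 (standard error 1.0, edgeR adjusted p = 0.201). It was at 0 CPM in reduced replicate 3 and oxidized replicate 5. The others were K08D12.3 (log2 fold change −1.86), ZK180.5 (−1.2), the cuticle collagen col-173 (−1.46) and C08B6.17 (−1.71), whose cohorts all overlapped. C08B6.17 lies inside the exons of the chitinase gene cht-5 on the other strand.

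**Figure D2:**
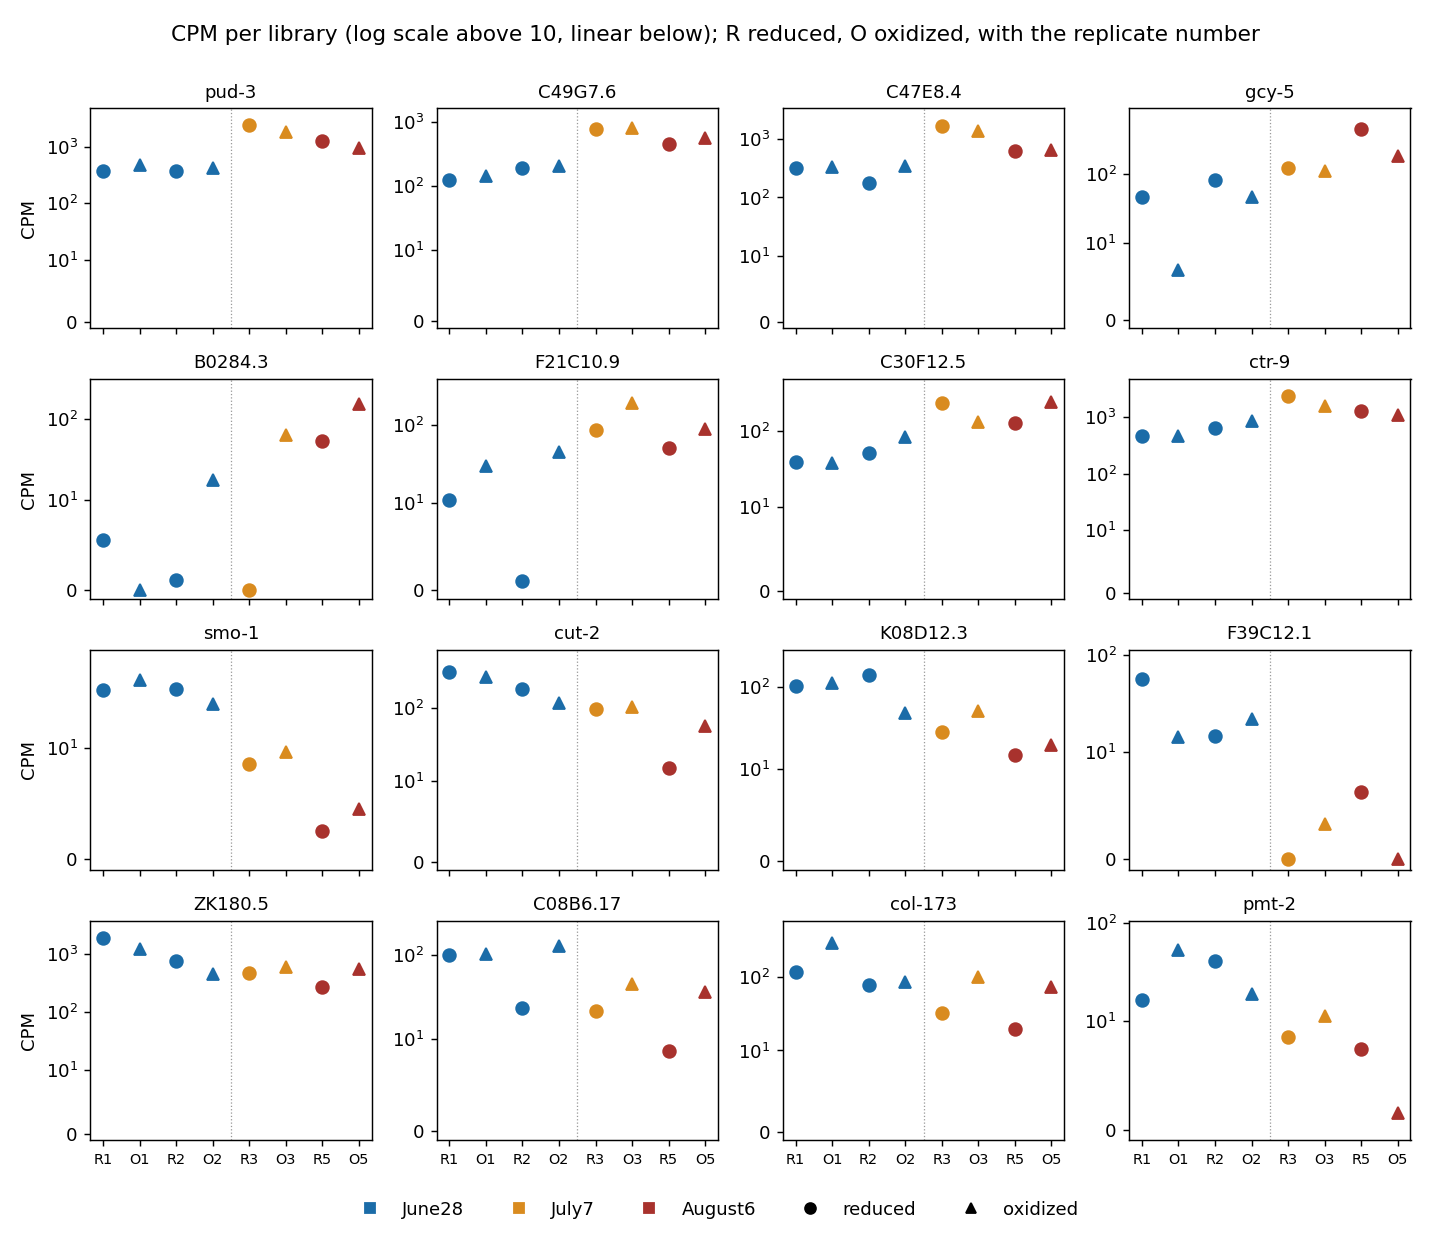
CPM in each of the 8 libraries (y axis, log scale above 10 and linear below) for the 8 rows with the smallest p in each direction, coloured by date, circles for reduced and triangles for oxidized libraries. In pud-3 the June28 libraries sit between 372.1 and 483.7 CPM and the later ones between 954.2 and 2474 CPM, while B0284.3 shows a later library at 0.

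Over all tested rows, 56 had all 4 later libraries above all 4 June28 libraries (2.42%) and 28 had them below (1.21%). A difference beyond 2-fold was seen in 179 rows with the later cohort higher (7.73%) and 198 with it lower (8.55%), of which 4 passed the test. Pearson's r of log2 CPM across rows was 0.787 to 0.893 for the 16 pairs from different cohorts (median 0.845). It was 0.835 to 0.884 for the 4 pairs with the same number (median 0.857). For the 4 June28 pairs of different number it was 0.825 to 0.885 (median 0.8455). For the 4 pairs of a July7 with an August6 library it was 0.813 to 0.87 (median 0.8615). Rows are not independent replicates, so these values are a description.

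Each later date was also set against June28 by itself, with the June28 libraries shared by both contrasts. July7 had 6 higher rows (0.259%) and 0 lower (0.0%) with edgeR, and 66 higher (2.85%) and 42 lower (1.81%) at an unadjusted p under 0.05. August6 had 7 higher rows (0.302%) and 1 lower (0.0432%), with 129 (5.57%) and 160 (6.91%) at an unadjusted p under 0.05. With edgeR's legacy setting, or with a minimum count of 30, August6 had 0 rows in either direction and July7 had 3 higher. The July7 rows were pud-3, C47E8.4, C49G7.6, F21C10.9, ctr-9 and Y58A7A.8. The August6 rows were B0284.3, gcy-5, kqt-2, T28C6.8, clec-178, K12B6.7 and Y58A7A.7 above and cut-2 below. Y58A7A.8, K12B6.7 and Y58A7A.7 fall outside the naming rule and were chosen after seeing their values.

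The log2 fold change of pud-3 was 2.39 in July7 (edgeR adjusted p = 0.000206) and 1.45 in August6 (edgeR adjusted p = 0.0997). For C47E8.4 it was 2.38 (edgeR adjusted p = 0.000238) and 1.11 (edgeR adjusted p = 0.244), and for C49G7.6 2.28 (edgeR adjusted p = 0.000889) and 1.63 (edgeR adjusted p = 0.068). These 3 rows thus had the larger value in July7. The gcy-5 row had 1.5 in July7 (edgeR adjusted p = 0.658) and 2.80 in August6 (edgeR adjusted p = 0.00376). The row of kqt-2, a potassium channel of the KCNQ family, had 1.33 in July7 and 2.95 in August6 (edgeR adjusted p = 0.0261). The T28C6.8 row stood at 28.5 and 38.7 CPM in July7 and at 234.7 and 183.0 CPM in August6, against 10.4 to 63.5 CPM in June28. Its log2 fold change was −0.16 in July7 and 2.50 in August6 (edgeR adjusted p = 0.0261). The cut-2 row had −1.15 in July7 and −2.66 in August6 (edgeR adjusted p = 0.032).

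Tested directly, August6 and July7 did not differ past the threshold in any row. With edgeR 0 rows were higher (0.0%) and 0 lower, against 90 (3.89%) and 62 (2.68%) at an unadjusted p under 0.05, and the T28C6.8 row had a difference of 2.66 (edgeR adjusted p = 0.476). A row called for 1 date and not for the other is therefore not shown to differ between them. Each date has 2 libraries here, 1 reduced and 1 oxidized, so a row that varies with redox in a single culture adds to its spread.

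**Figure D3:**
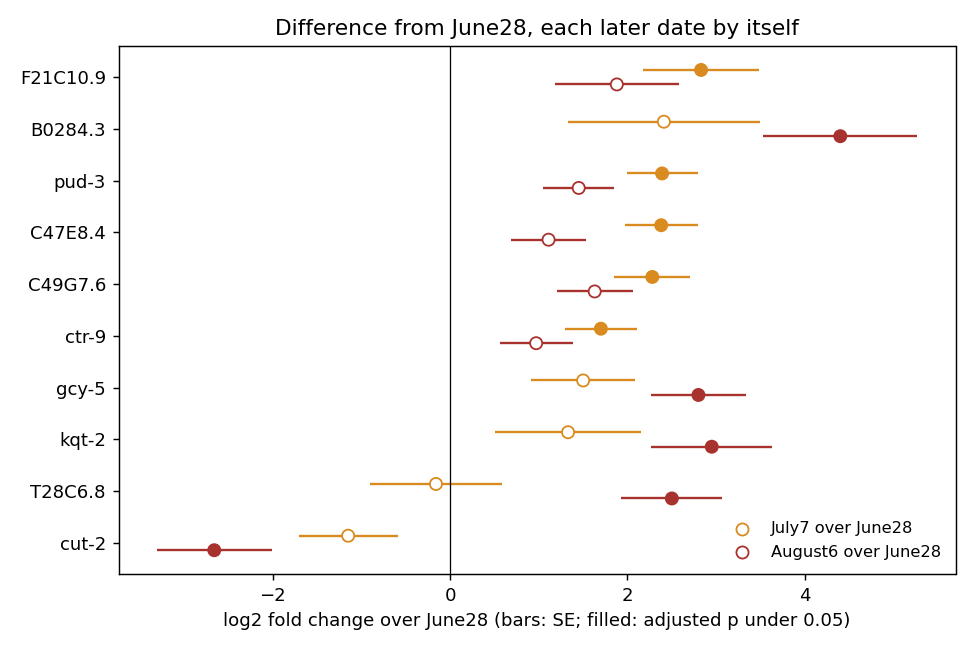
Log2 fold change over June28 (x axis, bars are standard errors) for July7 in orange and August6 in red, for the rows named by rule that passed in at least 1 contrast, with filled points at an edgeR adjusted p under 0.05. The pud-3, C47E8.4 and C49G7.6 rows pass in July7 and the gcy-5, B0284.3, kqt-2 and T28C6.8 rows in August6, while cut-2 lies below 0 on both dates.

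Whether the cohort difference depended on redox state was tested with an interaction term. No row passed with edgeR, in either direction (0.0%), and 55 rows (2.38%) and 24 rows (1.04%) had an unadjusted p under 0.05. In pud-3, C49G7.6, C47E8.4 and gcy-5 the cohorts did not overlap, so the later libraries necessarily lay above the June28 libraries within each redox state. Within the reduced libraries the edgeR adjusted p of these rows was 0.247 to 0.48, and within the oxidized libraries 0.999.

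Gene lists were read from the members' own rows, and with edgeR no member of any list passed over all rows tested, against 0.173% of all rows. DESeq2 called the clec-178 row of the immune effectors, and the ctr-9 row opposite the redox enzyme gene sod-4. The 78 tested rows of cytosolic ribosomal proteins, subunits of the translation machine, all had a log2 fold change below 0, with a median of −0.62, against a median of −0.06 and 1235 of 2315 rows below 0 over all rows tested. Within the list 13 rows were lower at an unadjusted p under 0.05, against 4.19% of all rows tested. The smallest was that of rpl-3 (log2 fold change −0.87, standard error 0.34, edgeR adjusted p = 0.483). The summed level of these rows was 27430, 47800, 53950 and 18100 CPM in reduced 1, oxidized 1, reduced 2 and oxidized 2, and 31100, 30490, 18050 and 18180 CPM in reduced 3, oxidized 3, reduced 5 and oxidized 5. The cohorts overlapped widely: oxidized replicate 1 and reduced replicate 2 were high, while oxidized replicate 2 was as low as August6. The median was −0.28 for July7 and −1.15 for August6, and −0.34 without oxidized replicate 1. The rpl-17 row, whose promoter drives the sensor, had a log2 fold change of −0.52 (standard error 0.37, edgeR adjusted p = 0.653).

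Translation elongation factors had 7 of 7 tested rows below 0, with a median log2 fold change of −0.73, with −0.84 for eef-1A.1, whose protein brings aminoacyl-tRNA to the ribosome, and −0.73 for eef-2, whose protein drives translocation. Nuclear-encoded respiratory chain rows had 22 of 26 below 0 (median −0.59), the median being −0.36 in July7 and −1.14 in August6. Body wall muscle rows had 20 of 23 below 0 (median −0.62), with the sarcomere genes mlc-1 at −0.81 and lev-11 at −0.78. Chaperones of the endoplasmic reticulum had 9 of 10 below 0 (median −0.54). Without oxidized replicate 1 the median was −0.45 for the elongation factors, −0.35 for the respiratory chain and −0.32 for these chaperones, and without reduced replicate 5 it was −0.40 for muscle. The SD between libraries of a list's median level was 0.63 for the ribosomal list and 0.36 for the muscle list on the log2 scale. These values come from own rows, and rows opposite members of these lists were few. The opposite rows had a median of −0.0 for muscle (6 rows, 3 above and 3 below 0) and 0.22 for the respiratory chain (3 rows, 1 below 0). Their median was 0.12 for these chaperones (3 rows, all above 0) and −0.23 for ribosomal proteins (3 rows, all below 0).

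The lowest median of any list with at least 5 tested rows was that of the intestinal proteases, cathepsin-like enzymes of digestion, with 12 of 12 rows below 0, the median being −0.96 on the log2 scale. Their summed level was 1554, 1809, 1392 and 1244 CPM in reduced 1, oxidized 1, reduced 2 and oxidized 2, and 956.9, 1284, 884.1 and 1062 CPM in reduced 3, oxidized 3, reduced 5 and oxidized 5. The June28 libraries lay above the later ones except that oxidized replicate 2 stood below oxidized replicate 3. The cpr-5 row had −1.66 (standard error 0.72), the cpz-1 row −1.56 (standard error 0.65) and the asp-1 row −1.02 (standard error 0.44), each at an edgeR adjusted p of 0.528. By contrast, 3 of 6 rows of intestinal regulators and brush border genes were above 0 and 3 below (median 0.11). The 2 rows opposite protease genes had a median of 0.17, with 1 above and 1 below 0. Whether the own rows measure the protease transcripts was not tested. In these bulk libraries fewer cells of a type and less RNA per cell cannot be told apart.

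Cuticle collagens had 58 of 83 rows below 0, the median being −0.26 on the log2 scale, with 3 rows higher and 12 lower at an unadjusted p under 0.05, against 4.62% and 4.19% of all rows. This median was −0.15 without reduced replicate 1. Over all rows tested the median was −0.06, with 1235 of 2315 below 0. Over the 1255 rows not opposite 1 coding gene it was −0.27, with 807 below 0, near the collagen value. The sqt-3 row, a major larval collagen, stood at 5828, 9803, 1602 and 3874 CPM in reduced 1, oxidized 1, reduced 2 and oxidized 2, against 1554, 4423, 896.5 and 4120 CPM in reduced 3, oxidized 3, reduced 5 and oxidized 5. The cohorts overlapped and the oxidized library was the higher in each same-numbered pair, with a log2 fold change between cohorts of −1.14 (standard error 0.39, edgeR adjusted p = 0.323). The rol-6 row had −1.02 and the col-58 row −2.11 (edgeR adjusted p = 0.432 and 0.364). Hedgehog-related rows had 7 of 8 below 0 (median −0.88), among them grl-16 (−0.90) and grd-6 (−1.47). Without reduced replicate 1 this median was −0.47. The summed level of the hedgehog-related rows was 2532 to 3787 CPM in June28 and 1991 to 4218 CPM later, with full overlap and the highest value in reduced replicate 3. Apical matrix and moulting rows were split, with 4 above and 6 below 0 (median −0.11). Collagen genes are alike in sequence, and how the counting divided their reads is unknown.

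**Figure D4:**
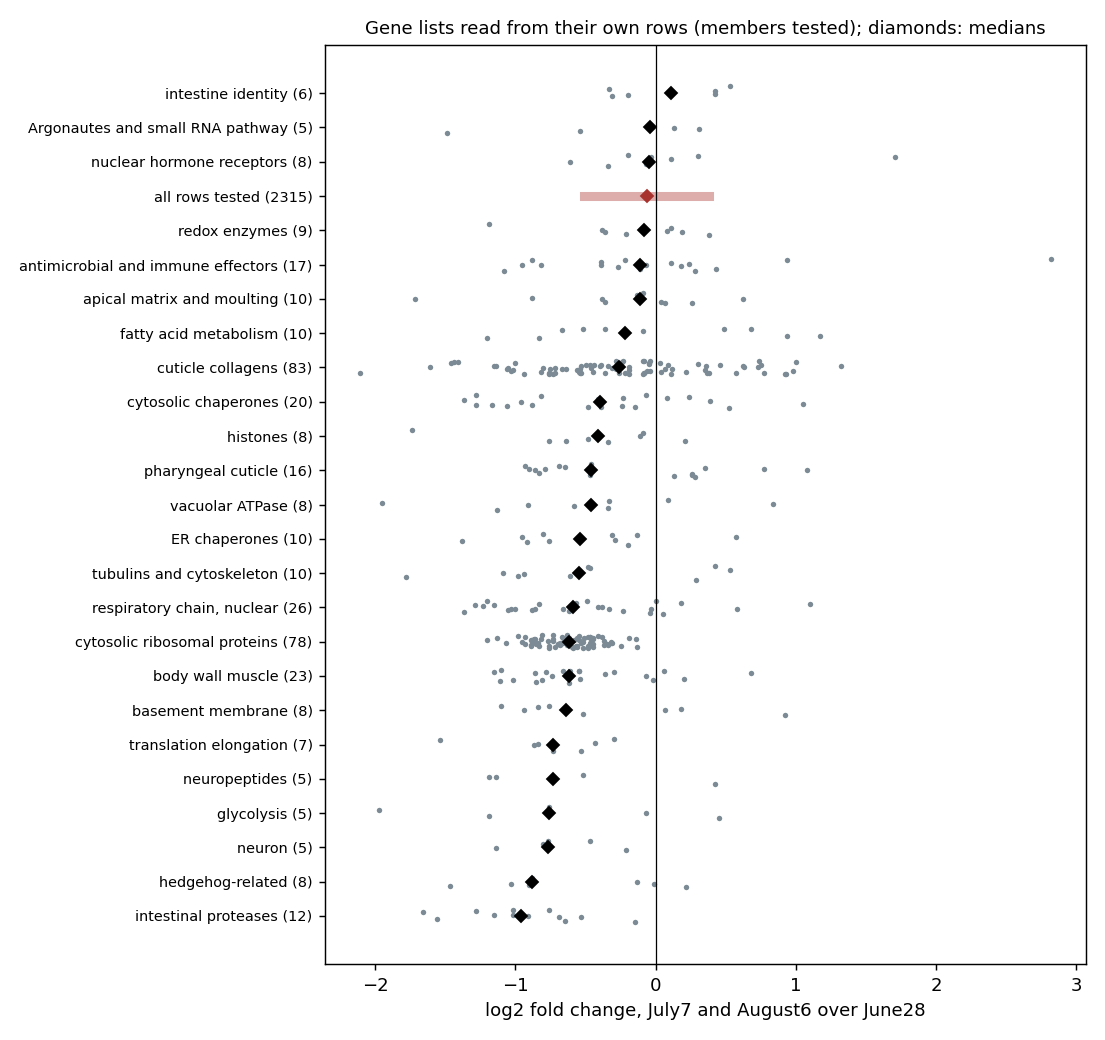
Log2 fold change of later over June28 (x axis) for the members of each gene list read from their own rows (grey points, number tested in brackets), with the list median as a diamond; for all rows tested the red bar spans the quartiles. The 78 ribosomal protein rows all lie left of 0 with a median of −0.62, and the intestinal proteases have the lowest median of the lists shown, which have at least 5 tested rows, −0.96.

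Rows on the other strand of redox enzyme genes were also read, because several enzymes are too low in their own rows. Of these 14 rows only 1 shares at least 100 bases with its enzyme gene. Whether an opposite row measures the gene it lies opposite, here and in the other lists, was not tested. From own rows, 4 of 9 were above 0 (median −0.08), with gsr-1, the glutathione reductase, at −0.21 and prdx-2, a peroxiredoxin, at −0.36. From rows opposite a redox enzyme gene, 11 of 14 were above 0 (median 0.13), the ctr-9 row opposite sod-4 having the highest value. Over all 1060 rows opposite 1 coding gene the median was 0.12, with 632 above 0, so the redox median was near that of its class. Antimicrobial and immune effectors had 7 of 17 own rows above 0 (median −0.11) and 7 of 8 opposite rows above 0 (median 0.29). Apical matrix genes likewise had a median of −0.11 from own rows and 0.57 from 12 opposite rows. Without 1 library these medians ran from −0.15 to 0.02 and from −0.01 to 0.43 for redox enzymes in the 2 readings. They ran from −0.21 to 0.06 and from 0.15 to 0.42 for immune effectors, and from −0.27 to 0.15 and from 0.36 to 0.78 for apical matrix genes. For the H3K4 demethylase gene rbr-2 the own row had −0.33 and the dnc-1 row opposite it 0.49 (edgeR adjusted p = 0.923 and 0.672).

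All rows tested were also split by overlap. Rows opposite list members fall among the rows opposite 1 coding gene. Own rows of list members fall in both parts, so this split is not the one between the 2 readings of a list. The 1060 rows opposite 1 coding gene had a median log2 fold change of 0.12, with 55 rows higher and 13 lower at an unadjusted p under 0.05. The other 1255 rows had a median of −0.27, with 52 higher and 84 lower. Over all rows these shares were 4.62% and 4.19%. By class, pseudogene rows had a median of 0.60 (48 tested, 39 above 0) and protein-coding rows −0.12 (1844 tested). The pseudogene median was 0.06 in July7 and 0.84 in August6. The share of counts in opposite rows was 41.9% ± 4.53 in June28 and 43.4% ± 2.07 later (SD, n = 4; exact two-sided permutation p = 0.571, adjusted p = 0.571), and its part in these medians was not tested.

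Rows of abundant transcripts were also compared. The zig-7 row, named for a secreted immunoglobulin-domain protein, stood at 62390 to 164600 CPM over the 8 libraries, with a log2 fold change of 0.33 (standard error 0.35, edgeR adjusted p = 0.797). The K11D9.5 row inside sca-1, a calcium pump gene, had −0.28, the T04C12.30 row inside the actin gene act-1 had −0.07 and the F56D12.10 row inside vig-1 had 0.03. In K11D9.5 a single June28 library, reduced replicate 1, stood at 22210 CPM, against 3983 to 9466 CPM in the other libraries. The own rows of sca-1, act-1 and vig-1 had log2 fold changes of −0.92, 0.20 and −0.54, none of which passed. These own rows held only 203, 164 and 1159 counts over the 8 libraries. The K11D9.5, T04C12.30 and F56D12.10 rows held 48203, 15626 and 84875. Which row of each pair measures the named gene was not tested.

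The makeup of the libraries did not separate the cohorts past the test. Total counts were 882900 ± 149400 in June28 and 718900 ± 86940 later (SD, n = 4; exact two-sided permutation p = 0.143), and rows detected numbered 6884 ± 714 and 6124 ± 725 (exact permutation p = 0.257). The share of ribosomal protein rows was 3.67% ± 1.96 and 2.37% ± 0.669 (exact permutation p = 0.343) and that of collagen rows 17.5% ± 3.88 and 14.4% ± 2.46 (exact permutation p = 0.257). The share of the 10 most abundant rows was 33.5% ± 1.99 and 35.0% ± 3.95 (exact permutation p = 0.543). Adjusted p over the 6 measures was 0.514 to 0.571. With 70 relabellings no permutation p can be smaller than 0.0286, so after this adjustment no measure could have passed by itself. June28 was the deeper cohort on average, and the part of depth in the results above was not tested.

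**Figure D5:**
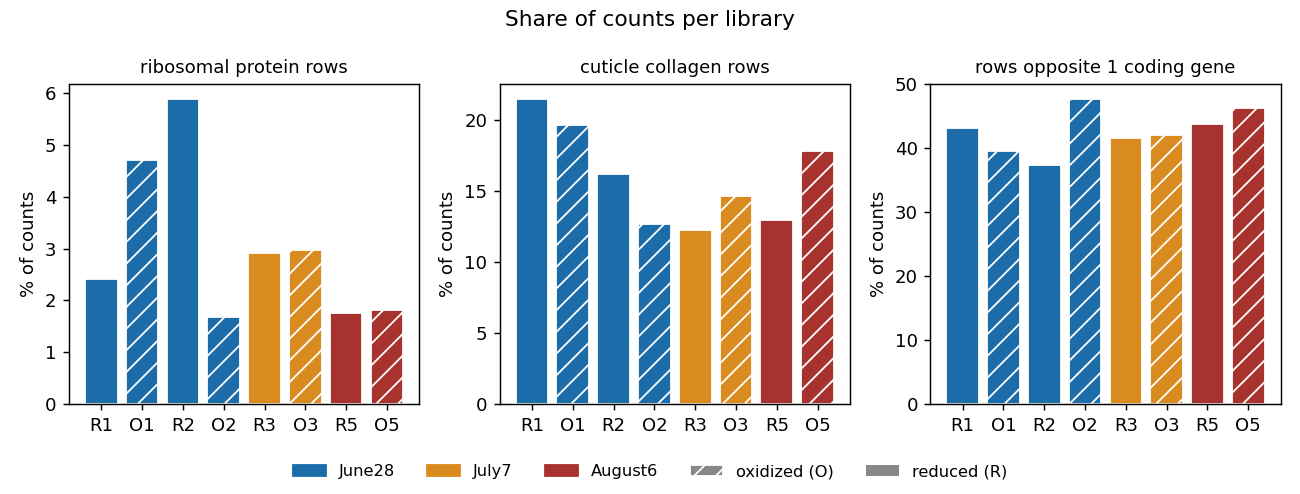
Share of counts (y axis, percent) in ribosomal protein rows, cuticle collagen rows and rows opposite 1 coding gene for each library, coloured by date and hatched where oxidized (R reduced, O oxidized, with the replicate number). The ribosomal share is highest in reduced replicate 2 (5.88%) and oxidized replicate 1 (4.70%) of June28 and lowest in oxidized replicate 2 of the same date (1.68%).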

How the data were processed

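The authors deposited raw counts per row; no normalization is recorded and totals differ between libraries. Per the labels' protocols, stranded libraries were made with 15 PCR cycles from 100 ng of total RNA after removal of ribosomal RNA, and read from both ends over 50 nt. The molecule label, in conflict with this, reads polyA RNA. Per the submitters' processing notes, the tools were TopHat2 2.0.13 with Bowtie2 2.2.1, Cuffdiff 2.1.1, Cufflinks and FastQC 0.11.3. The deposited count table is named for HTSeq; its version and strand setting, the genome build and the gene annotation were not given in the sources used here. Of 45461 rows, 32245 had no count. The table names no row other than genes, and 2 columns of values that match no sample were not used.

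Names of rows were looked up in Ensembl's WBcel235 annotation (44933 matched, 528 did not, with 0.363% of counts). A row was called opposite when it shared at least 20 exon bases with 1 coding gene of the other strand.

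Cohorts follow the titles, and redox the characteristic in the labels. The title of some libraries also holds R4 or R5, whose meaning is not stated. After filterByExpr and TMM scaling, rows were tested in edgeR 4.0.16 (glmQLFit, robust, legacy = FALSE) in R 4.3.3, with redox as a covariate and a Benjamini-Hochberg adjusted p threshold of 0.05 over all 2315 rows. The standard error is the log2 fold change divided by the root of F. DESeq2 1.42.0 and limma 3.58.1 (voom) were alternatives; further ones are given in the closing section. The coefficient of biological variation was 56.7%. Python 3.11.15 was used for tables.

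Same-numbered libraries share a date. Their deviations from the cohort and redox means correlated at −0.32 to 0.02, against −0.70 to 0.48 for other pairs. Taking out these means shapes such correlations by itself, so they cannot show whether same-numbered libraries pair. The number is nested in the cohort, with 2 numbers in each, so same-numbered libraries may not be independent replicates of a cohort. All June28 libraries share a date, so their SD holds no spread between dates.

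Named rows were the called rows, the 8 with the smallest p in each direction (fewer than 5 had passed), up to 4 per contrast by date and up to 4 members of each list described, and 7 fixed genes with rows opposite or nested. The members, lists and rules were chosen with earlier results of these data known. Of 41 lists, 24 had at least 5 tested own rows.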

Additional observations from a re-analysis of the deposited data

Results flagged for a closer look

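In 48 groups of 4 libraries the highest and lowest values were checked for distance from the rest. A single group had such a value, and about 2.4 would by chance. In the C47E8.4 row, reduced replicate 2 of June28 stood at 174.3 CPM, while the other June28 libraries lay between 321.3 and 348.5 CPM. Without that library the C47E8.4 row no longer passed (edgeR adjusted p = 0.0845).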

How the results depend on the processing

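The count of 4 higher rows became 2 with a minimum count of 30, 2 with edgeR's legacy setting, 2 with the redox labels of replicate 5 exchanged and 13 with DESeq2. It became 10 with the replicate number as a fixed block and 0 with same-numbered libraries summed. Leaving out 1 library gave 0 to 9: 9 with reduced replicate 1 left out, 1 with oxidized replicate 1, 0 with oxidized replicate 2 and 2 with reduced replicate 3. Leaving out both libraries of a number gave 2 without replicate 1, 0 without 2, 7 without 3 and 6 without 5. In all 24 alternatives the 4 called rows kept their direction; pud-3 passed in 19, C49G7.6 in 17, C47E8.4 in 13 and gcy-5 in 9. With the legacy setting July7 had 3 higher rows and August6 0 higher and 0 lower, as they did with a minimum count of 30.

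The share of opposite rows was 1.51 percentage points higher in the later cohort and ran from −0.013 (without reduced replicate 2, a reversed sign) to 3.44 without 1 library. With at least 100 shared bases the median of opposite rows rose to 1.03 for collagens and 1.38 for redox enzymes (4 rows and 1 row). It fell from 0.29 to 0.07 for immune effectors (3 rows) and from 0.57 to 0.32 for apical matrix genes (5 rows). For pharyngeal cuticle genes it fell from −0.22 to −0.64 (2 rows). List medians without libraries were added after seeing the data. Without 1 library they ran from −0.87 to −0.34 for ribosomal proteins and from −1.37 to −0.64 for proteases. They ran from −0.66 to 0.09 for pharyngeal cuticle, −0.87 to 0.53 for rows opposite it, −0.67 to −0.28 for histones, −0.34 to 0.30 for Argonautes and −0.08 to 0.01 for all rows. Without replicate 3 the median was 0.24 for apical matrix, −1.12 for cytosolic chaperones and −0.74 for Argonautes. Without replicate 5 it was −0.61 for apical matrix, −0.74 for histones, −0.95 for rows opposite pharyngeal cuticle genes, −0.02 for cytosolic chaperones and −0.12 for all rows. Without replicate 1 it was −0.30 for nuclear hormone receptors and −0.01 for basement membrane, and without replicate 2 it was 0.14 and −1.03 for the same lists. The cause of these shifts was not tested, and fits without libraries also have fewer of them. At 3 counts a library reaches 2.75 to 4.72 CPM, which limits low rows.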
